A study of Mus musculus with 18 samples.

Results

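The 8 genes described here encode subunits of the GABA-A receptor: Gabra2, Gabra3, Gabra4 and Gabra5 (alpha), Gabrb1 and Gabrb2 (beta), and Gabrg1 and Gabrg3 (gamma). They were taken by symbol from a list of genes, drawn up with earlier results of these data known, and are 8 of the 38250 genes and transcripts in the count tables. RNA was counted in 3 fractions sorted from the lateral cortex of C57BL/6 mouse embryos at embryonic day 14.5. All embryos carried a Btg2 and a Tubb3 reporter. Btg2 is an antiproliferative gene of progenitors that are about to form neurons, and Tubb3 is a neuronal tubulin. Proliferating progenitors (PP) were labelled Btg2 negative and sorted for lack of red signal, differentiating progenitors (DP) were sorted as red cells, and neurons (Neuron) as green, Tubb3-positive cells. The titles write RFP where the genotype label writes GFP for Btg2. A fraction is whatever the gate let through, and each sample pooled more than 3 embryos of different litters. Each fraction had 3 libraries, named here as in the count tables: L222, L355 and L393 for PP, L223, L356 and L394 for DP, and L224, L357 and L395 for Neuron. Values are listed in that order. Each library held both a single-read and a paired-end run, whose counts were added, to 34337209 to 55935128 counts per library.

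GABA-A receptors are pentameric chloride channels opened by the transmitter GABA, and most are built from alpha, beta and gamma subunits. GABA binds between an alpha and a beta subunit, the alpha subunit sets much of the receptor's affinity and place in the cell, and a gamma subunit is needed for benzodiazepine binding and for most synaptic receptors. In the embryonic cortex GABA acts before synapses form, and because young cells hold much chloride it tends to depolarise progenitors and newborn neurons.

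4 of the 8 genes lie side by side on chromosome 5. In the mm9 gene models of the deposited tables, Gabrg1 (minus strand, 71142286 to 71233856), Gabra2 (minus strand, 71352296 to 71487088), Gabra4 (minus strand, 71960973 to 72049547) and Gabrb1 (plus strand, 72091171 to 72529628) follow one another, with Gabra4 and Gabrb1 head to head and 41.6 kb apart. Gabrg3 (63971835 to 64642558) and Gabra5 (64663060 to 64765379) are neighbours on the minus strand of chromosome 7, 20.5 kb apart. Gabrb2 lies on the plus strand of chromosome 11 (42233259 to 42446092) and Gabra3 on the minus strand of the X chromosome (69678020 to 69902187). Exons of the members overlapped no other counted gene, except those of Gabra5, which overlapped Gm9962. Gm9962 had 7 reads in all libraries together.

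The sequences below are the 250 bases upstream of a RefSeq start site (GRCm38.p6) for the 3 chromosome 5 genes that were higher in DP than in PP. They are shown because these genes, which rose at the same step, differ in the base composition of their start regions. Each is written 5′ to 3′ on the gene's own strand, with CG pairs in capitals.
Gabrg1 (chr5:70842618-70842867, minus strand): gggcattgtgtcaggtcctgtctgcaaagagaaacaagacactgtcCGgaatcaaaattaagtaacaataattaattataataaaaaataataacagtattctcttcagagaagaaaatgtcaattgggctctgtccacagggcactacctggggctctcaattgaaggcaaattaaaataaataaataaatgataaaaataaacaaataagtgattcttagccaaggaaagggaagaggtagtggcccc
Gabra2 (chr5:71095850-71096099, minus strand): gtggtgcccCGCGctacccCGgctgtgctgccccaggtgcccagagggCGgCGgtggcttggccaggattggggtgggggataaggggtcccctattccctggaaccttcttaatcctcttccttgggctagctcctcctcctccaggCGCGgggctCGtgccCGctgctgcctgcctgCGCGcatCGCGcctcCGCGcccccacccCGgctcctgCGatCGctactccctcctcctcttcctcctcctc
Gabrb1 (chr5:71699682-71699931, plus strand): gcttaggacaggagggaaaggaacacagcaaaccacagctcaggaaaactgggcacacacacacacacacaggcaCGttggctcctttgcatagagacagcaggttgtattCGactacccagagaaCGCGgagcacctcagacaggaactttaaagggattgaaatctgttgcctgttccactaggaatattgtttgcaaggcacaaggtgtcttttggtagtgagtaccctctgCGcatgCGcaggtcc
The Gabrg1 window held 1 CG pair at 35.6% GC, and 92.1% of 32851 RefSeq promoter windows of the same length held as many or more. The Gabra2 window held 18 CG pairs at 70.0% GC, a number reached by 21.7% of windows. The Gabrb1 window held 6 at 50.8% GC, the same number as the median window. Gabrb1 has another RefSeq start beside that of Gabra4, whose window held 18 CG pairs.

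All 8 genes matched RefSeq, with 12 start sites. Short motifs were searched on both strands, and no motif is contained in another. The proneural E-box CAGATG stood in 1 of the 12 windows, that of Gabra5, against 14.4% of all windows. Another E-box, CAGCTG, stood in 0 of 12, against 13.0%. The GC box GGGCGG stood in 4 of 12 (Gabra2, Gabra4, Gabrb2 and Gabrg3), against 32.7%. The TATA box TATAAA stood in 3 of 12 (both starts of Gabra3 and 1 of Gabrb2), against 12.4%. The Gabra3 windows overlap and hold the same match. These are matches of letters within these windows.

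RNA levels of the 8 listed members differed between Neuron and the progenitor fractions in both directions, while Gabra2 had the highest level per kb in both DP and Neuron. From DP to Neuron, Gabra2, Gabra3, Gabra5, Gabrb2 and Gabrg3 rose, and Gabra4, Gabrb1 and Gabrg1 fell, so each subunit class held members that moved in opposite directions. From PP to DP, Gabra2, Gabrg1, Gabrb1 and Gabrb2 rose and no member fell. Levels in each library are given in CPM, the counts of a gene scaled to a common library total with TMM factors, and a change was called at an adjusted p under 0.05 (edgeR's quasi-likelihood test, Benjamini-Hochberg adjustment over all 18627 features tested). All 8 members passed the filter on low counts, Gabra5 only through its Neuron libraries. In bulk fractions, fewer cells of a type and less RNA per cell cannot be told apart.

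**Figure D1:**
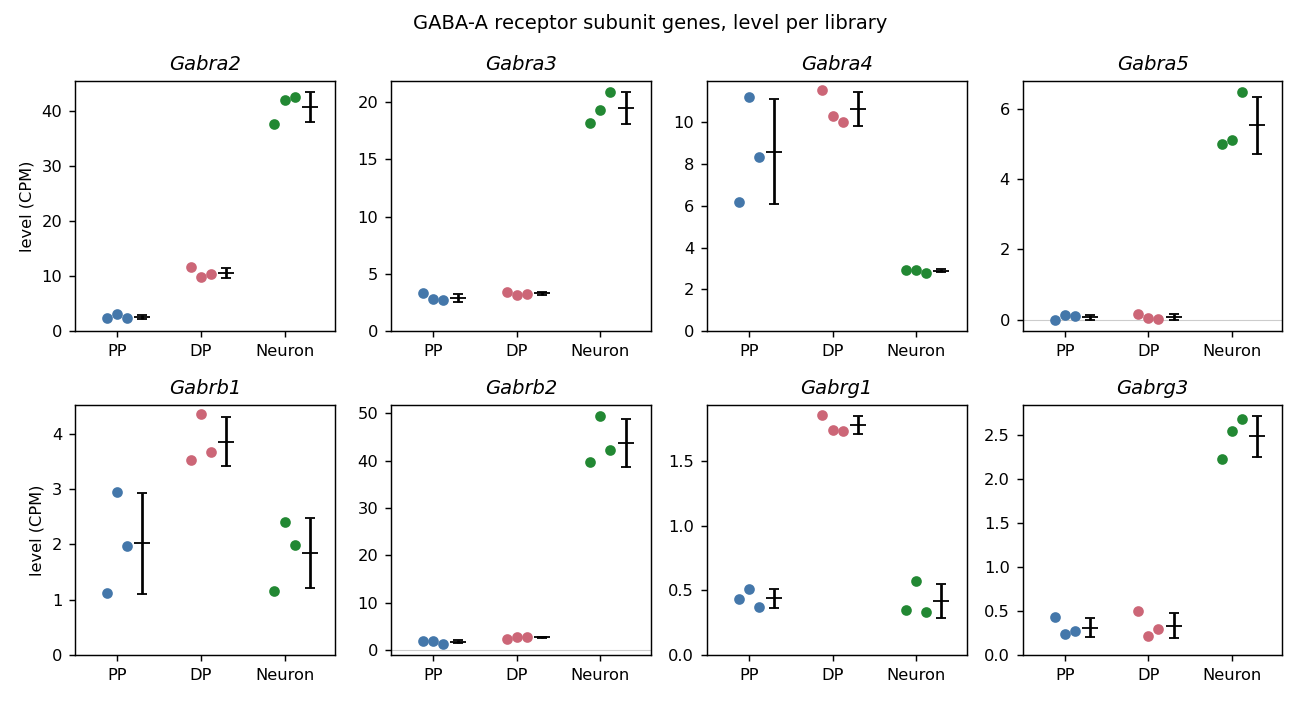
Level in CPM (vertical axes, which differ between panels) of each GABA-A subunit gene in the 3 PP, 3 DP and 3 Neuron libraries. Points are libraries, and bars are the mean ± SD. Gabra2 rose at both steps, from 2.63 to 10.6 to 40.8 CPM on average, while Gabrg1 was highest in DP.

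Among the alpha subunits, Gabra2, which is abundant in the embryonic brain, rose at both steps. It stood at 2.36, 3.05 and 2.47 CPM in PP, at 11.7, 9.92 and 10.3 CPM in DP and at 37.8, 42.1 and 42.6 CPM in Neuron. No library of a fraction overlapped those of the next. The rise was 4.03-fold from PP to DP (log2 change 2.01 ± 0.12 SE, adjusted p = 4.47e-07, n = 3 libraries per fraction, edgeR) and 3.84-fold from DP to Neuron (1.94 ± 0.11, adjusted p = 1.57e-08).

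Gabra3, another alpha subunit of the immature cortex, rose only in the Neuron comparisons. Its level was 3.33, 2.78 and 2.69 CPM in PP and 3.46, 3.16 and 3.26 CPM in DP, ranges that overlapped. The difference between these progenitor fractions did not pass the threshold (log2 0.17, 95% interval -0.10 to 0.44, edgeR adjusted p = 0.299). In Neuron it stood at 18.2, 19.3 and 20.9 CPM, 5.92-fold above DP (edgeR adjusted p = 3.63e-09).

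Gabra5, known for extrasynaptic receptors of the hippocampus, was near the limit of detection in progenitors. Its 3 PP libraries held 11 reads together, with 0 reads in library L222, where a count of 0 allows up to 0.0805 CPM. The DP libraries also held 11 reads together. In Neuron it stood at 5.01, 5.10 and 6.46 CPM from 716 reads, 65.6-fold above DP (log2 6.04, 95% interval 5.05 to 7.02, edgeR adjusted p = 2.20e-07). The size of that fold rests on the few DP reads: it was 6.92 on the log2 scale without DP library L223 and 6.99 without L222, L223 and L224.

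Gabra4, in the adult mostly a subunit of extrasynaptic receptors, was the alpha gene that fell. Its level was 6.20, 11.2 and 8.34 CPM in PP, the widest spread of any alpha gene there relative to its mean apart from Gabra5. It was 11.5, 10.3 and 10.0 CPM in DP and 2.95, 2.93 and 2.81 CPM in Neuron. Every progenitor library lay above every Neuron library, and Neuron was 3.66-fold lower than DP (log2 -1.87 ± 0.19 SE, edgeR adjusted p = 3.40e-06) and 2.97-fold lower than PP (edgeR adjusted p = 1.21e-05). PP and DP overlapped and did not differ past the threshold (log2 0.30, 95% interval -0.09 to 0.69, edgeR adjusted p = 0.2). Without PP library L355 the DP level was called higher (log2 0.54, edgeR adjusted p = 0.0178).

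Of the beta subunits, Gabrb2, part of the most common adult receptor, stood at 1.88, 1.96 and 1.38 CPM in PP, at 2.42, 2.77 and 2.77 CPM in DP, and at 39.7, 49.4 and 42.2 CPM in Neuron. The fractions did not overlap. Its rise from PP to DP was small, 1.53-fold (log2 0.62 ± 0.16 SE, edgeR adjusted p = 0.00813), and that from DP to Neuron was 16.4-fold (4.04 ± 0.14, adjusted p = 4.77e-10). In the paired-end runs alone the rise to DP was not called (log2 0.42, edgeR adjusted p = 0.096).

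Gabrb1 went up and then down. It stood at 1.13, 2.95 and 1.97 CPM in PP, at 3.53, 4.36 and 3.67 CPM in DP, and at 1.15, 2.40 and 1.98 CPM in Neuron. All DP libraries lay above all others, while PP and Neuron covered nearly the same range. DP was 1.90-fold above PP (log2 0.92 ± 0.32 SE, edgeR adjusted p = 0.0363), and Neuron fell by 1.06 on the log2 scale from DP (± 0.32 SE, edgeR adjusted p = 0.0117). The rise to DP was not called without PP library L222 (log2 0.65, adjusted p = 0.1), without PP library L393 (0.91, adjusted p = 0.0813), without DP library L356 (0.83, adjusted p = 0.106), without DP library L394 (0.96, adjusted p = 0.0625), or in the paired-end runs alone (0.81, adjusted p = 0.0931), all by edgeR. It was called without L222, L223 and L224 together (log2 0.72, edgeR adjusted p = 0.0391). With consecutive library numbers fitted as a replicate block, the rise to DP was called too (log2 0.98, edgeR adjusted p = 0.00296). The difference between Neuron and PP did not pass the threshold (log2 -0.14, 95% interval -0.86 to 0.58, edgeR adjusted p = 0.717).

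In PP, library L222 was the lowest for both Gabrb1 and its neighbour Gabra4, and library L355 the highest. Gabra2 and Gabra5 had that order too, whereas Gabra3 and Gabrg3 were highest in L222. Gabrb2 and Gabrg1 were lowest in L393. The 7 red blood cell markers summed to 15274 CPM in library L222 and to 8353 and 8778 CPM in the other PP libraries, against 17.4 to 117.6 CPM in DP and 9.04 to 13.4 CPM in Neuron. The part of blood cells in these levels was not tested.

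Among the listed members the gamma genes were the least abundant class. The 2 gamma genes summed to 0.118 ± 0.015 (SD, n = 3), 0.401 ± 0.026 and 0.296 ± 0.036 CPM per kb of gene model in PP, DP and Neuron. The 2 beta genes summed to 0.828 ± 0.302, 1.51 ± 0.16 and 5.01 ± 0.70. The 4 alpha genes summed to 3.95 ± 0.72, 7.89 ± 0.63 and 24.8 ± 1.6. Gabrg1 stood at 0.430, 0.513 and 0.370 CPM in PP, at 1.86, 1.74 and 1.74 CPM in DP and at 0.351, 0.569 and 0.335 CPM in Neuron. DP was 4.05-fold above PP (log2 2.02 ± 0.24 SE, edgeR adjusted p = 5.39e-05) and Neuron 4.18-fold below DP (-2.06 ± 0.24, adjusted p = 1.31e-05), while Neuron and PP overlapped and did not differ past the threshold (log2 -0.04, 95% interval -0.65 to 0.56). These levels rest on 58 reads in PP, 241 in DP and 56 in Neuron.

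Gabrg3 stood at 0.430, 0.235 and 0.267 CPM in PP and at 0.494, 0.213 and 0.289 CPM in DP, which overlapped (log2 0.11, 95% interval -0.69 to 0.90, edgeR adjusted p = 0.845). In Neuron it stood at 2.22, 2.54 and 2.68 CPM, 7.51-fold above DP (log2 2.91 ± 0.30 SE, edgeR adjusted p = 3.70e-06). Gabrg3 and its chromosome 7 neighbour Gabra5 were called higher in the same 2 comparisons, Neuron against DP and Neuron against PP. Gabra3, on the X chromosome, had the same calls. Of all features, 33.1% were higher in Neuron than in DP and 36.7% higher than in PP.

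**Figure D2:**
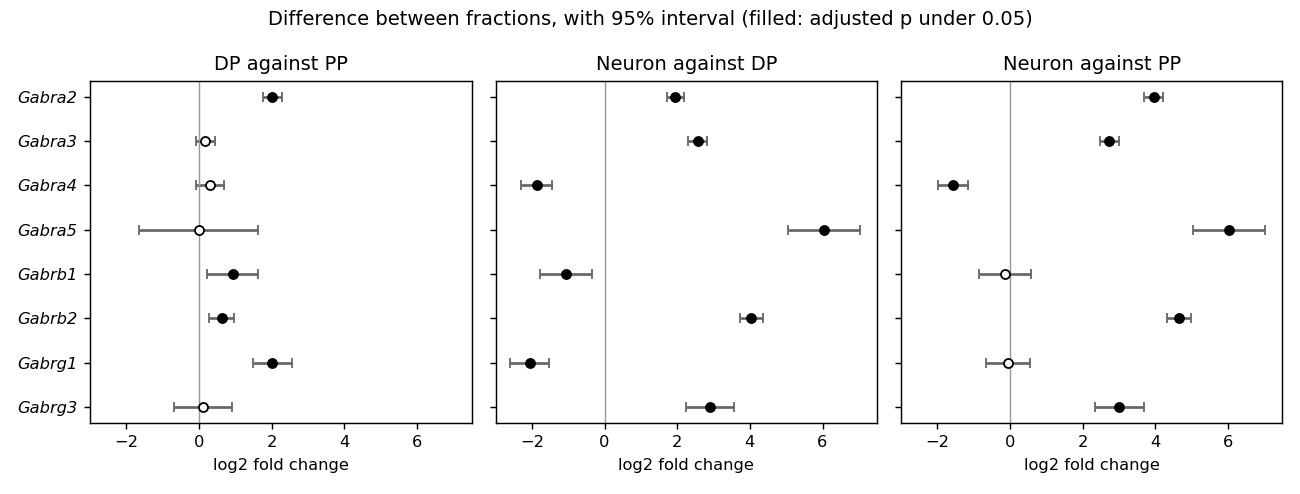
Log2 fold change (horizontal axes) of each member in the 3 comparisons, with its 95% interval from edgeR; filled points passed the adjusted p of 0.05. Gabra4, Gabrb1 and Gabrg1 lay below 0 from DP to Neuron, and the other 5 members above.

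Counted over the family, 4 of 8 members were higher in DP than in PP, where 21.3% of all features were, and 0 of 8 were lower, where 20.2% of all features were. From DP to Neuron 5 of 8 were higher (33.1% of all features) and 3 of 8 lower (34.2%). Between PP and Neuron 5 of 8 were higher in Neuron (36.7%) and 1 of 8 lower (38.6%). The 5 in both of these counts include Gabra5, which passed the low-count filter only through Neuron, where it was high. Its place in them is thus not independent of the filter. DP was above both other fractions for 2 of 8 members, Gabrb1 and Gabrg1 (4.37% of all features), and 2 of 8 rose at both steps, Gabra2 and Gabrb2 (12.4%). The comparisons share libraries, so these counts are not independent of one another. The median log2 change of the 8 members was 0.46 from PP to DP, 2.25 from DP to Neuron and 2.88 from PP to Neuron, against -0.02, -0.04 and -0.04 over all features. Members that had moved up in DP did not share a direction in the next step: of the 4, Gabra2 and Gabrb2 rose again, and Gabrb1 and Gabrg1 fell.

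The authors' deposited table gave log2 changes from PP to DP of 2.01 for Gabra2, 2.00 for Gabrg1, 0.92 for Gabrb1 and 0.62 for Gabrb2. From DP to Neuron the authors' deposited table gave 5.97 for Gabra5, 4.06 for Gabrb2, -1.84 for Gabra4, -1.02 for Gabrb1 and -2.02 for Gabrg1.

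Levels can be compared between genes after division by the length of the gene model, as CPM per kb. In PP the order was Gabra4 (2.08 ± 0.61 SD CPM per kb, n = 3), Gabra2 (1.10 ± 0.16), Gabra3 (0.747 ± 0.088) and Gabrb1 (0.653 ± 0.295), then Gabrb2, Gabrg1, Gabra5 and Gabrg3 at 0.175 or less. The libraries of Gabra3 and Gabrb1 overlapped in PP. In DP, Gabra2 led with 4.44 ± 0.38 CPM per kb, followed by Gabra4 with 2.57 ± 0.20 and Gabrb1 with 1.25 ± 0.14. In Neuron, Gabra2 stood at 17.1 ± 1.1 CPM per kb, Gabra3 at 4.96 ± 0.35, Gabrb2 at 4.41 ± 0.51 and Gabra5 at 2.08 ± 0.31. The libraries of Gabra3 and Gabrb2 overlapped there, as did those of Gabra4 and Gabrb1, at 0.701 and 0.597 CPM per kb. Gabra5 and Gabrg3 overlapped in PP and in DP. The lead of Gabra2 depends on the division by length. Before it, Gabrb2 stood at 43.8 CPM in Neuron against 40.8 CPM for Gabra2, with libraries that overlapped. In DP, Gabra2 and Gabra4 both stood at 10.6 CPM before division. The 8 genes summed to 4.90 ± 1.03 CPM per kb in PP, 9.80 ± 0.55 in DP and 30.1 ± 2.1 in Neuron, with no overlap between the fractions.

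As a share of its class, Gabra4 gave way to Gabra2 among the 4 alpha genes. Gabra4 held 51.9% ± 6.3 (SD, n = 3) of their summed CPM per kb in PP, 32.6% ± 0.7 in DP and 2.84% ± 0.26 in Neuron. Gabra2 held 27.9% ± 1.5, 56.4% ± 0.7 and 68.8% ± 1.1. Gabra3 held 19.5%, 10.7% and 20.0%, and Gabra5 held 8.37% in Neuron. Without division by length, Gabra2 and Gabra4 had shares of 43.2% and 43.1% in DP. Of the beta pair, Gabrb1 held 76.9% ± 9.6 in PP and 82.3% ± 1.3 in DP, and Gabrb2 held 88.3% ± 2.8 in Neuron. Of the gamma pair, Gabrg1 held 77.8% ± 6.5 in PP and 93.2% ± 2.5 in DP, and Gabrg3 held 70.7% ± 6.1 in Neuron. Without division by length Gabrb1 held 52.1% ± 12.7 of the beta pair in PP, between 37.5% and 60% in single libraries, so that Gabrb2 led in 1 of the 3, and Gabrg1 held 58.9% ± 9.3 of the gamma pair. By mean share per kb, in all 3 classes the member with the largest share in PP was not the one with the largest share in Neuron. These are shares among the listed members alone, with other subunit genes left out.

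**Figure D3:**
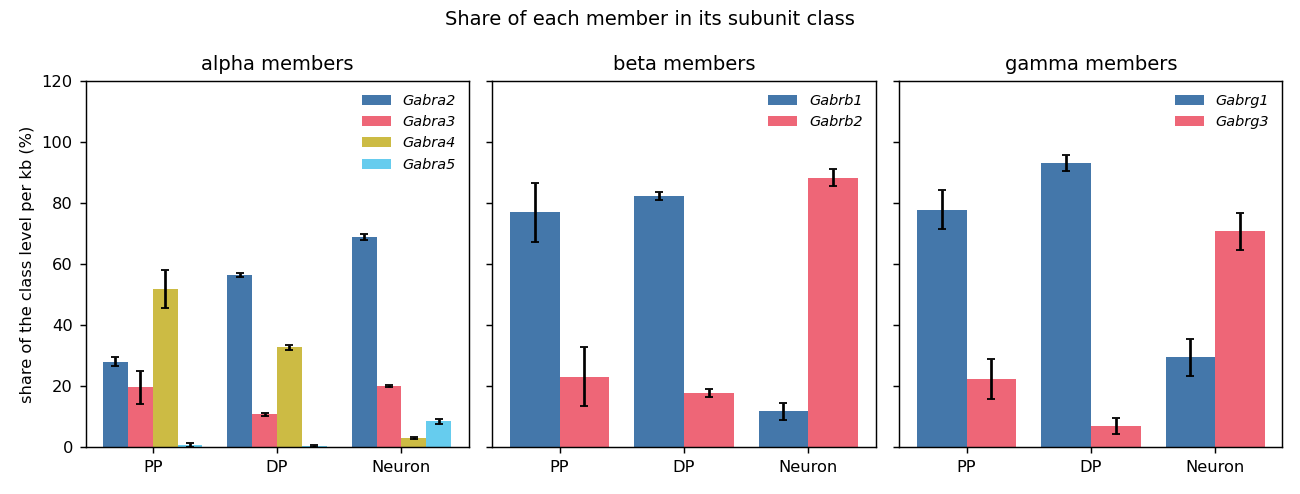
Share (%) of each gene in the summed CPM per kb of the listed alpha, beta or gamma members, as mean ± SD over 3 libraries per fraction. The leading beta gene is Gabrb1 in PP and DP (76.9% and 82.3%) and Gabrb2 in Neuron (88.3%).

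By Pearson's r of log2(CPM + 0.5) over the 9 libraries, among 10524 protein-coding genes with at least 10 CPM in a fraction, Gabra2 was most alike to Dlgap2 (r = 0.998), a scaffold protein of synapses, and Gabra5 to Gria4 (r = 0.998), an AMPA receptor subunit. Gabrg3 was most alike to Anks1b (r = 0.995), Gabra3 to Ralgapa1 (r = 0.999), Gabrb2 to Dlk2 (r = 0.9995) and Gabra4 to Stk11 (r = 0.987). Gabrg1 was most alike to R3hcc1 (r = 0.989), with 55.4, 66.4 and 54.4 CPM in PP, DP and Neuron. At rank 3 for Gabrg1 was Rspo2 (r = 0.986), a secreted activator of Wnt signalling, with 1.39, 15.4 and 1.12 CPM. The best match of Gabrb1 was Tstd2 (r = 0.933), the lowest of these values. The points share the 3 fractions, so genes with a like order of fractions can score high, and r says nothing of the size of a change: Ralgapa1 rose from 83.1 to 129 CPM from DP to Neuron, a smaller ratio than for Gabra3.

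Genes that act around the receptor were read from the same fit. Of 3 tested genes for other GABA-A and rho subunits, 0 rose and 2 fell from PP to DP (21.3% and 20.2% of all features). From DP to Neuron 0 rose and 1 fell (33.1% and 34.2% of all features). The one that fell in Neuron was Gabre, the epsilon subunit, at 11.8 ± 2.6 CPM in PP, 8.32 ± 1.26 CPM in DP and 0.362 ± 0.095 CPM in Neuron, 22.9-fold below DP (edgeR adjusted p = 1.27e-08). Gabra4, Gabrb1 and Gabrg1 fell at that step too. Both subunits of the metabotropic GABA-B receptor rose at both steps: Gabbr1 from 150 ± 10 to 190.1 ± 20.0 to 478 ± 15 CPM, and Gabbr2 from 0.0479 to 0.287 to 26.7 CPM, the first of these levels resting on 6 reads.

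Among 9 tested genes for making, packing, taking up and breaking down GABA, 2 rose and 5 fell from PP to DP. Of all features, 21.3% rose and 20.2% fell there. From DP to Neuron 3 of the 9 rose and 3 fell. The shares at the second of these steps were near those of all features (33.1% and 34.2%). Dbi, which encodes a ligand of the benzodiazepine site, fell from 233 ± 49 to 117 ± 21 to 11.3 ± 0.9 CPM. Gad2, a GABA-synthesising enzyme, rose from 1.62 ± 1.85 to 8.09 ± 4.76 to 76.4 ± 6.9 CPM. Glul, glutamine synthetase, fell from 194 ± 8 to 154 ± 5 CPM from PP to DP and stood at 157.4 ± 7.3 CPM in Neuron.

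The 20 genes for receptor assembly, trafficking and anchoring included 8 that rose and 1 that fell from PP to DP, where 21.3% and 20.2% of all features did. From DP to Neuron 14 of the 20 were higher and 2 lower, against 33.1% and 34.2% of all features, with a median log2 change of 0.50 against -0.04 over all features. Nlgn2, an adhesion protein of inhibitory synapses, rose from 228 ± 15 CPM in DP to 544 ± 27 CPM in Neuron. Trak1, a kinesin adaptor that binds GABA-A receptors, rose from 291 ± 11 to 484 ± 18 CPM, and Ubqln1, which stabilises receptor subunits, from 186 ± 13 to 217 ± 6 CPM. Rdx, radixin, which anchors receptors holding the alpha5 subunit, fell from 313.2 ± 21.6 to 185 ± 5 CPM while Gabra5 rose.

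Of 4 chloride cotransporters, 2 fell and 2 were not called from PP to DP, where 20.2% of all features fell. From DP to Neuron 2 rose and 1 fell, against 33.1% and 34.2% of all features. Slc12a2 (NKCC1), which loads cells with chloride, fell from 104 ± 5 CPM in PP to 73.8 ± 8.3 CPM in DP and stood at 73.8 ± 3.4 CPM in Neuron. Slc12a7, a potassium chloride exporter, stood at 151 ± 7 CPM in PP and 165 ± 12 CPM in DP and fell to 39.1 ± 5.4 CPM in Neuron. Slc12a5 (KCC2), the neuronal chloride exporter, which was named after its values were seen, stood at 9.52 ± 1.37, 7.91 ± 1.00 and 15.7 ± 2.0 CPM and was 1.99-fold above DP in Neuron (edgeR adjusted p = 6.04e-05). Both tested glycine receptor genes were higher in Neuron than in DP: Glra2, the embryonic alpha subunit, at 56.3 ± 5.4 against 0.491 ± 0.166 CPM, and Glrb at 19.9 ± 0.4 against 11.1 ± 0.9 CPM.

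**Figure D4:**
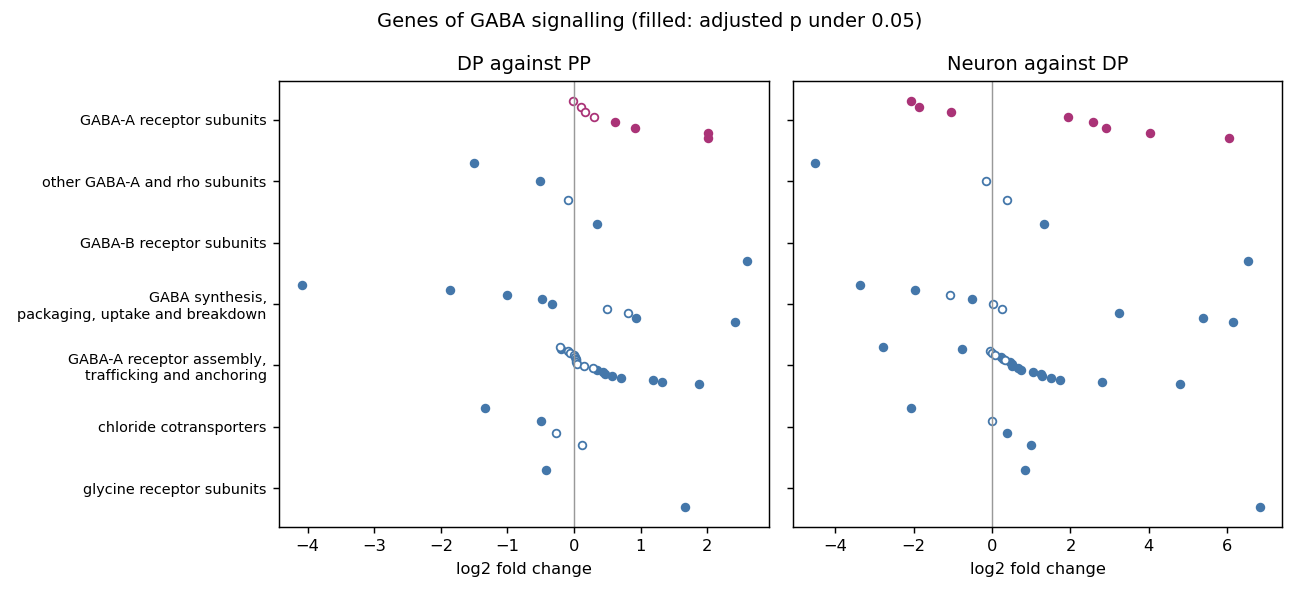
Log2 fold change (horizontal axes) of each tested gene of 7 lists around GABA signalling, from PP to DP and from DP to Neuron; filled points passed the adjusted p of 0.05. From DP to Neuron the members split into 5 above and 3 below 0, and 14 of 20 assembly and anchoring genes were called higher.

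The fractions carried the marker genes of their labels. Radial glia markers summed to 6147 to 7235 CPM in PP, 2758 to 3964 CPM in DP and 311.5 to 393.3 CPM in Neuron, and intermediate progenitor markers to 3543 to 5083 CPM in DP against 1494 to 1512 CPM in PP. Cortical projection neuron markers summed to 282 to 367 CPM in PP, 1144 to 1556 CPM in DP and 5813 to 5907 CPM in Neuron, and markers of postmitotic neurons to 125 to 269, 1314 to 1811 and 6023 to 6575 CPM. Of 8 tested postmitotic neuron markers, 7 were higher in DP than in PP and 1 lower, where 21.3% and 20.2% of all features were. The lower one was Gap43, at 32.3 CPM in PP and 22.7 CPM in DP. All 8 cortical projection neuron markers were higher in DP. Both neuronal sums were thus higher in DP than in PP, as were Gabra2, Gabrb1, Gabrb2 and Gabrg1. The part of neuronal cells in the rises of these 4 members was not tested. Tubb3 rose from 87.9 to 581 to 2384 CPM, and Btg2 was highest in DP at 888 CPM against 445 CPM in PP. The fractions were sorted on reporters of these genes, so their order is no independent check of the labels. Tubb3 is also part of the postmitotic neuron sum, and Btg2 of the intermediate progenitor sum. Markers of interneurons and of Cajal-Retzius cells were also higher in Neuron, where 5 members rose. Although the ganglionic eminences had been removed, 15 markers of GABAergic interneurons and the ganglionic eminence summed to 660 to 669 CPM in Neuron, 172 to 356.4 CPM in DP and 210 to 248 CPM in PP, and 9 of 14 tested were higher in Neuron than in DP. Of these, Gad1 stood at 68.9 ± 0.6 CPM and Slc32a1, the vesicular GABA transporter, at 41.4 ± 5.0 CPM in Neuron, against 0.964 and 0.986 CPM in DP. The 7 Cajal-Retzius cell markers summed to 920 to 1041 CPM in Neuron, 94.1 to 114 CPM in DP and 9.59 to 14.8 CPM in PP. The 7 subplate neuron markers went the other way in sum, at 206 to 251 CPM in PP, 137 to 142 CPM in DP and 70.5 to 76.4 CPM in Neuron, and of 6 tested 2 were higher and 4 lower in Neuron than in DP. None of the 15 interneuron or 7 Cajal-Retzius markers was at 0 reads in a fraction. The part of these cells in the levels of Gabra2, Gabra3, Gabra5, Gabrb2 and Gabrg3 was not tested.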

How the data were processed

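RNA of 9 libraries (18 samples in the labels, 2 runs per library) was analysed. The authors deposited raw counts per gene and run. The submitters' processing notes give mm9, TopHat2 2.0.10 and featureCounts 1.4.4 with no role. The strand setting of the counting is not stated in these sources. The log2 fold changes and the adjusted p-values of the deposited comparison tables are the authors' own, per the file headers.

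Counts of both runs were added. edgeR 4.0.16 in R 4.3.3 (TMM, filterByExpr, quasi-likelihood test, all 9 libraries, group as the only term) tested 18627 features, with Benjamini-Hochberg adjustment at 0.05, and the fit was tested on simulated data. Folds are fitted values. Levels are CPM as mean ± SD (n = 3). The replicates are separate pools of embryos, as the series design states. Totals were 34337209 to 55935128 counts per library, and the floor of 3 reads and all intervals cover counting or replicate error only. Chi-square values per degree of freedom between libraries of a group were 7.92 to 29.1, so none was a duplicate.

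The count columns carry library numbers that no label gives. Libraries with consecutive numbers (L222 to L224, L355 to L357 and L393 to L395) deviated from their group means together (r of 0.187 to 0.462 for all pairs, across features), and all 9 were most alike to their own set, so the sets were treated as pairs in a fit with a replicate block.

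Alternatives were DESeq2 1.42.0 (size factors and Wald test), no low-count filter, only the 2 groups compared, each kind of run alone, each library or the lowest-numbered set left out, and the block. Promoter windows came from RefSeq. The rule named all 8 members, up to 4 genes per other list with at least 10 CPM and a call, and the 3 most alike genes per member. The members, lists and rules were chosen with earlier results of these data known. Some other subunit genes and some genes of the other lists are not reported here.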

Additional observations from a re-analysis of the deposited data

How the results depend on the processing

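All 136 fold changes of the members from DP to Neuron under the alternatives kept their direction and their side of the threshold, as did 129 of 136 between PP and Neuron and 118 of 135 between PP and DP. The calls that changed were those of Gabrb1, Gabrb2 and Gabra4 given in the report. With PP and DP alone in the fit, Gabra5 did not pass the low-count filter. In the paired-end runs alone, 2 members were called between PP and DP in place of 4. With libraries left out in turn the count was 3 to 5. Signs turned only for differences that were not called. For Gabra5 between PP and DP the log2 change was 0.00086 with no low-count filter, 0.21 in the paired-end runs and -0.88 to 0.48 with a library left out. For Gabrg3 it was -0.54 in the single-read runs, -0.0036 without the lowest-numbered set and -0.28 to 0.38 with a library left out. Between PP and Neuron, Gabrg1 had 0.11 in the single-read runs, 0.083 without that set and -0.34 to 0.092 with a library left out, and Gabrb1 had -0.41 to 0.24 with a library left out. The cause was not tested.

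With the replicate block, 9530, 13620 and 14938 features were called from PP to DP, from DP to Neuron and from PP to Neuron, against 7714, 12539 and 14035 without it. The block changed no member's call, and Gabrb1 had an adjusted p of 0.00296 from PP to DP with it (edgeR). Depth limits Gabra5, Gabrg1 and Gabrg3 in progenitors, where a fraction held 11 to 241 reads of each.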
